A study of Mus musculus with 6 samples.

Results

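A stretch at the end of mouse chromosome 1 (build GRCm38) holds the genes from Diexf, which begins at 193091104, to Cr2, which ends at 195176716, with Lamb3 near one edge and Cr1l near the other. The 8 genes described here are A130010J15Rik, Lamb3, Gm37691, Plxna2, Cd34, A330023F24Rik, Cd46 and Cr1l. They were chosen by symbol and position from 42 annotated features of that stretch and 55487 genes in all, after their levels in these libraries were known. Their differences between groups are therefore given as a description, without a test.

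The libraries were made from poly(A) RNA of 20 mg pieces of frozen liver from male mice aged 8 weeks on standard chow. WT animals were of the substrain BALB_cJ and SCADD animals of BALB_cBYJ, a substrain deficient in the mitochondrial enzyme short-chain acyl-CoA dehydrogenase, with 3 animals in each group. The series title sets the work within histone acylation and transcription under this enzyme deficiency. Enzyme genotype and substrain went together in every animal, so an effect of the deficiency and one of any other variant between the substrains cannot be told apart at any gene below.

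Several of these genes code for proteins of the cell surface or of the matrix around it. Cr1l and Cd46 belong to the regulators of complement activation, a gene cluster whose products keep complement from attacking the body's own cells by inactivating its deposited fragments. Lamb3 encodes a chain of the laminin that anchors epithelia to their basement membrane, Plxna2 a plexin receptor for semaphorins, and Cd34 a sialomucin of blood progenitors and blood vessel endothelium. A330023F24Rik is a noncoding transcript that carries the hairpins of microRNAs of the miR-29 family, known for lowering collagen and other matrix mRNAs through sites in their 3′ untranslated regions.

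The mature miR-29 sequences are shown because the hairpins Mir29b-2 and Mir29c lie within an exon of A330023F24Rik and, on the other strand, within an exon of Cd46. They come from RefSeq on GRCm38.p6, with the seed (bases 2 to 8) in capitals. The first is at chr1:195037091-195037113 on the plus strand, the second at chr1:195037600-195037621 on the plus strand. The third, a relative from chromosome 6 at chr6:31062673-31062694 on the minus strand, is shown for comparison.
mmu-miR-29b-3p: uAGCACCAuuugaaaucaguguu
mmu-miR-29c-3p: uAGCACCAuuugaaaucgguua
mmu-miR-29a-3p: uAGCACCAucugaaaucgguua

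All 3 share the seed AGCACCA, which 3 of 1679 mature mouse entries hold. Poly(A) libraries do not measure mature microRNAs, so only the host transcript was read here. Because Cd46 runs across the hairpins in the opposite direction, the transcript Cd46-203 holds the full complement of both chromosome 1 microRNAs. The stretches below, on the minus strand, begin at transcript positions 6001 and 5493, counted from its 5′ end, and the capitals mark the seed match TGGTGCT.
Cd46 opposite miR-29b-3p: aacactgatttcaaaTGGTGCTa
Cd46 opposite miR-29c-3p: taaccgatttcaaaTGGTGCTa

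Among the 6 coding members with a 3′ untranslated region, Cd46 held 4 matches to TGGTGCT on the transcript's strand and Cr1l held 1. Of the 4 in Cd46, 2 lie opposite the hairpins of Mir29c and Mir29b-2. Lamb3, Plxna2, Cd34 and A130010J15Rik held none. Each gene was read from its annotated transcript with the most matches, which for Cr1l was Cr1l-204, of 2776 bases. The abundance-weighted mean transcript length of Cr1l, from RSEM, was 1317 to 1379 bases in WT and 1365 to 1530 bases in SCADD libraries. How much of Cr1l carries the match was not measured. Over 11714 tested genes with an annotated 3′ untranslated region, 1919 (16.4%) held at least 1 match. The Cr1l site and those of a pair of collagen genes described further on are given with 11 bases on each side and the match in capitals.
Cr1l: atggaagacttTGGTGCTgagggtgattt
Col5a3: catgggctcctTGGTGCTgaggctctgag
Col15a1: aatccacatatTGGTGCTagattctgcag

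Promoter sequence is shown for the coding members with the largest differences between groups, Lamb3, Cd34 and Cr1l, and for Plxna2, whose groups overlapped. Each is 250 bases ending at a RefSeq start site (GRCm38.p6), written 5′ to 3′ on the gene's strand with CpG dinucleotides in capitals. They are at chr1:193301744-193301993 (plus), chr1:194938571-194938820 (plus), chr1:195131571-195131820 (minus) and chr1:194619579-194619828 (plus). This is the reference sequence of the build, not sequence read from either substrain.
Lamb3: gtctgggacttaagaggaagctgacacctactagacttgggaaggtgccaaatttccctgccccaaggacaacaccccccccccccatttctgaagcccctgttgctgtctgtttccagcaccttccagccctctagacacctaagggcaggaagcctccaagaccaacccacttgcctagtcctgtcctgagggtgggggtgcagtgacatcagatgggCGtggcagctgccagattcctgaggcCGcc
Cd34: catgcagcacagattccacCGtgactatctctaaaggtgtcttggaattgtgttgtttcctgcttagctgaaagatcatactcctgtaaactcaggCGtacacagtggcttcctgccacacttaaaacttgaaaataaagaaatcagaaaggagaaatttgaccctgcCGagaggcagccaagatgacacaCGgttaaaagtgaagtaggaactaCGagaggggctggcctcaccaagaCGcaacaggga
Cr1l: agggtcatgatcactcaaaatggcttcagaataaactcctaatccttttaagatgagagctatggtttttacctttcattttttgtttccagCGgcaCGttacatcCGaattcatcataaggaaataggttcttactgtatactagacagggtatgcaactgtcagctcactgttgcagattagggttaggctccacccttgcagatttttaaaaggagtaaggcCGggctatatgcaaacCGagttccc
Plxna2: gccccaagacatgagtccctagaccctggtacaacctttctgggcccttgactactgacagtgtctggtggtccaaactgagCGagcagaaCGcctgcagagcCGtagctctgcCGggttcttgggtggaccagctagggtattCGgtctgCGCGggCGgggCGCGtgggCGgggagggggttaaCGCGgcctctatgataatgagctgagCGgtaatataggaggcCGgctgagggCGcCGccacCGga

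CpG dinucleotides numbered 2 in the shown Lamb3 promoter, 6 in that of Cd34 and 5 in that of Cr1l, against 18 in Plxna2. A second Lamb3 start site, with a window ending at 193302242, had 3. Both Lamb3 windows lie inside the annotated span of the gene, where other transcripts begin at or near 193207699. The median over 32851 mouse promoters of the same length was 6. The other members with an entry lay above this median, with 7 in A330023F24Rik, 10 in Cd46 and 12 in the first of the A130010J15Rik start sites. The A330023F24Rik window also lies inside the annotated span of its gene. The transcript that starts there, at 195017398, ends at 195036929, before the miR-29 hairpins. Another, from 195024109 to 195037904, covers them. Of 3 motifs searched on both strands, the GC box GGGCGG was found 2 times in the Plxna2 promoter and in 32.7% of all promoters. It was also found 2 times in each A130010J15Rik window, at the same 2 sites, since these windows overlap. The CCAAT box CCAAT was found 1 time, in the Cd46 promoter, and in 33.8% of all promoters. The TATA box TATAAA (12.4% of all promoters) was found in none of the members' windows, which says only that these letters are not there.

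CPM here means read counts scaled to library size, after TMM scaling for differences in library composition. Values of single libraries are always given in the order of replicates 1, 2 and 3. Acads, the gene of the missing enzyme, stood at 185, 166 and 196 CPM in WT livers and at 99.3, 104 and 97.0 CPM in SCADD livers, each SCADD library below each WT library. Gene counts summed to between 23991104 and 27148756 in WT libraries and between 16948986 and 23912744 in SCADD libraries. Unmapped reads were 13.6% to 16.4% of WT and 25.1% to 36.6% of SCADD reads, with SCADD replicate 3 the highest and also the lowest in gene total. Of 13498 genes tested with edgeR's quasi-likelihood test at a Benjamini-Hochberg adjusted p under 0.05, 569 were higher and 378 lower in SCADD livers. That split became 470 higher and 482 lower under upper-quartile scaling. The hepatocyte markers summed to 110600 to 161336 CPM in WT and 101602 to 141614 CPM in SCADD libraries. Most of these sums was Alb, at 86355 to 135287 CPM in WT and 79586 to 117365 CPM in SCADD libraries.

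Across the stretch, all 8 genes passed the filter on low counts. Of them 4 passed the threshold of the whole-genome fit, 2 higher (Lamb3 and Gm37691) and 2 lower (Cd34 and Cr1l), against 7.02% of all tested genes, 4.22% higher and 2.8% lower. In these same 4 genes no SCADD library overlapped a WT library, which held for 28% of all tested genes. Since the genes were chosen on this contrast, nothing is read from these counts. The number of the 8 genes past the threshold depended on single libraries. It was 2 without WT replicate 2 (Lamb3 and Gm37691) and 2 without SCADD replicate 3 (Gm37691 and Cr1l). It was 3 without WT replicate 1 or SCADD replicate 2, each time without Cd34, and 3 without WT replicate 3, then without Cr1l.

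**Figure D1:**
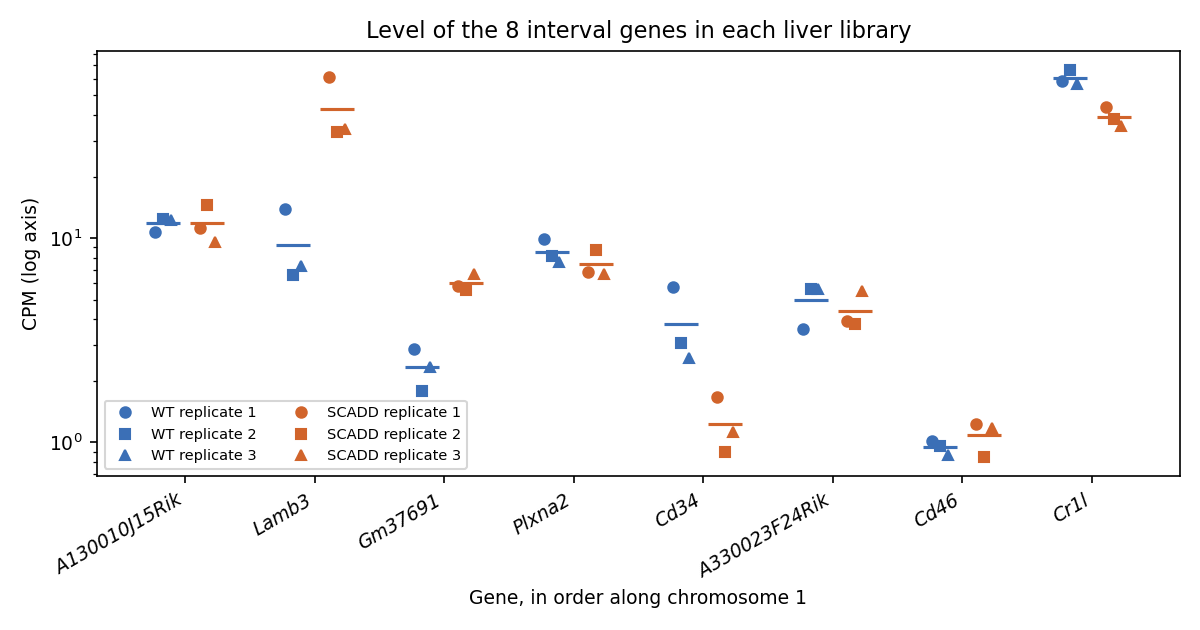
Level of the 8 genes in each library, in CPM on a log axis, with genes in order along chromosome 1. Blue symbols are WT and orange symbols SCADD libraries, the shape gives the replicate and each line is a group mean (n = 3). Lamb3 and Gm37691 are higher, and Cd34 and Cr1l lower, in every SCADD library than in any WT library, while the other 4 genes overlap.

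Cr1l (ENSMUSG00000016481, positions 195097382 to 195131586, minus strand) encodes the rodent membrane protein known as Crry, which guards cells against complement. It was counted 1630, 1520 and 1510 times in WT livers, or 58.97, 66.5 and 56.7 CPM. In SCADD livers it was counted 1079, 808 and 569 times, or 44.0, 38.1 and 35.3 CPM. The highest SCADD library lay below the lowest WT library. Group means were 60.7 ± 5.11 and 39.1 ± 4.45 CPM (SD, n = 3 per group), which is a log2 fold change of -0.63 (SE 0.13), or 0.645 times the WT level.

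Per transcript length, Cr1l was the most abundant of the 8 genes in both groups. In TPM, a transcript level scaled for length and library, it stood at 51.5, 52.9 and 41.6 in WT livers and at 35.6, 29.7 and 18.5 in SCADD livers. In each library it stood above the other 7 genes, and the WT mean of 48.7 ± 6.19 TPM (SD, n = 3) stood at the 89.2 percentile of tested genes. The SCADD mean was 27.9 ± 8.68 TPM (SD, n = 3).

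Cd46 (ENSMUSG00000016493, positions 195036826 to 195092249, minus strand), a cofactor for cleavage of complement fragments that in mice is known mainly from the testis, had the lowest mean of the 8 in both groups. Its own strand held 28, 22 and 23 counts in WT livers, or 1.01, 0.962 and 0.863 CPM. SCADD libraries held 30, 18 and 19 counts, or 1.22, 0.849 and 1.18 CPM. The groups overlapped, with means of 0.946 ± 0.0760 and 1.08 ± 0.205 CPM (SD, n = 3 per group) and a log2 fold change of 0.19 (SE 0.29).

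Of reads over Cd46 exons on either strand, only 11.6% to 23.3% lay on its own strand, while in the other 7 genes at least 96.0% did. The opposite strand, that of A330023F24Rik, held 113, 145 and 176 counts in WT livers and 99, 80 and 110 in SCADD livers. RSEM's expected counts for Cd46 were 1.69 to 2.94 times its own-strand counts, against 0.767 to 0.963 times in the other members. TPM values of Cd46 come from that RSEM run and may hold reads of its neighbour.

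The other regulators of complement were looked at from a list of 17 tested genes without Cr1l and Cd46. Of these, 3 rose in SCADD livers, or 17.65%, and none fell, against 4.22% higher and 2.8% lower of all tested genes. The median log2 fold change was 0.05, against -0.0008 over all tested genes. Susd4, a membrane inhibitor of the complement convertases, rose from 0.511 ± 0.163 to 2.45 ± 0.724 CPM (SD, n = 3 per group), which is a log2 fold change of 2.22 (SE 0.34, edgeR's adjusted p = 0.00357). Cd59a, which blocks the last step of pore formation, rose from 59.5 ± 9.54 to 125 ± 24.2 CPM (SD, n = 3 per group), which is a log2 fold change of 1.07 (SE 0.18, edgeR's adjusted p = 0.00616). Its relative Cd59b rose from 3.90 ± 0.194 to 7.38 ± 2.65 CPM (SD, n = 3 per group), which is a log2 fold change of 0.91 (SE 0.24, edgeR's adjusted p = 0.0477). All 3 SCADD libraries lay above every WT library for each of the 3 genes, and groups did not overlap in 28% of all tested genes. The call of Cd59b was lost under limma-voom (adjusted p = 0.0625), upper-quartile scaling (0.0594) and a filter of 1 CPM (0.0522). It was also lost without any 1 of the 3 WT libraries (edgeR's adjusted p 0.114 to 0.138) and without SCADD replicate 3 (0.0599). Cd59a and Cd59b are related duplicates, and reads shared between them were not measured.

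Cr2, the next gene after Cr1l and known as a complement receptor of B cells, was counted 6, 1 and 3 times in WT livers. SCADD libraries held 1, 2 and 2 counts, too few for the test. It begins 5.2 kb beyond Cr1l, which in turn lies 5.1 kb from Cd46. Of these 3 neighbouring complement genes, Cr1l was thus the most abundant in every library.

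Lamb3 (ENSMUSG00000026639, positions 193207699 to 193343878, plus strand) showed the largest difference of the 8 genes. It stood at 13.9, 6.56 and 7.32 CPM in WT livers, from 730 counts in all. SCADD libraries reached 61.7, 33.1 and 34.4 CPM, from 1513, 702 and 554 counts. The lowest SCADD library stood above the highest WT library, and replicate 1 was the highest in either group. Means were 9.27 ± 4.05 and 43.1 ± 16.2 CPM (SD, n = 3 per group), which is a log2 fold change of 2.21 (SE 0.36), or 4.64-fold.

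In TPM, Lamb3 stood at 3.69, 1.62 and 1.99 in WT livers and at 15.2, 9.89 and 5.88 in SCADD livers. Its mean moved from the 42.8 to the 71.0 percentile of tested genes and from rank 3 to rank 2 among the 8. In the WT order it overlapped its lower neighbour Cd34, and in the SCADD order A130010J15Rik. The annotation gives Lamb3 9 transcripts of 258 to 4867 bases. RSEM's abundance-weighted mean transcript length was 3624, 3703 and 3322 bases in WT livers and 3964, 3446 and 4227 bases in SCADD livers. These ranges overlapped. The coding transcripts of full length have 4013, 4056 and 4867 bases.

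The Lamb3 chain joins that of Lama3 in the epithelial laminin. Lama3 stood at 1.95 ± 0.411 CPM in WT and 1.23 ± 0.451 CPM in SCADD livers (SD, n = 3 per group), which is a log2 fold change of -0.66 (SE 0.31) that did not pass the test (edgeR's adjusted p = 0.236), and its groups overlapped. Itgb4, a chain of the integrin that binds this laminin, had 23 counts over the 6 libraries and was not tested. Lama3 and Itgb4 were chosen after their values were seen.

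In the list of other laminins and their receptors, 1 of 20 tested genes (5%) rose and none fell, against 7.02% called of all tested genes. The median log2 fold change was 0.07. The gene that rose was Dag1, dystroglycan, a receptor for laminins, at 18.6 ± 2.20 CPM in WT and 31.3 ± 6.55 CPM in SCADD livers (SD, n = 3 per group). Its log2 fold change was 0.75 (SE 0.17, edgeR's adjusted p = 0.0260), and all 3 SCADD libraries lay above the WT libraries. The call was lost without WT replicate 2 or 3 and without SCADD replicate 1 or 2, with edgeR's adjusted p of 0.0559 to 0.129.

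Gm37691 (ENSMUSG00000104348, positions 193281271 to 193283843, plus strand) is an annotated transcript of unknown function. It lies wholly between annotated exons of Lamb3 on the same strand. Reads of a long or unspliced Lamb3 transcript and of Gm37691 cannot be told apart in these counts. Counts were 79, 41 and 62 in WT livers, or 2.86, 1.79 and 2.33 CPM. In SCADD livers they were 142, 118 and 108, or 5.79, 5.57 and 6.70 CPM. All SCADD libraries lay above all WT libraries. Means were 2.33 ± 0.533 and 6.02 ± 0.600 CPM (SD, n = 3 per group), which is a log2 fold change of 1.36 (SE 0.21), or 2.57-fold.

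The order of the libraries was not that of Lamb3, since SCADD replicate 3 was the highest for Gm37691 and SCADD replicate 1 for Lamb3. In TPM, Gm37691 stood at 1.25, 0.68 and 0.89 in WT livers and at 2.53, 2.54 and 2.26 in SCADD livers. It begins 690 bases after the end of a short noncoding Lamb3 transcript of 355 bases and ends 18.2 kb before the start of the coding transcript of 4056 bases. The short transcript starts 121 bases from the start of G0s2, which is read in the other direction, so that Gm37691 lies 8.1 kb from G0s2.

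G0s2, an inhibitor of the lipase that releases stored fat, and Hsd11b1, which reactivates glucocorticoid hormone, are abundant liver genes inside the annotated span of Lamb3 on the opposite strand. Neither shares an exonic base with Lamb3. G0s2 stood at 251, 253 and 346 CPM in WT livers and at 758, 454 and 945 CPM in SCADD livers, a log2 fold change of 1.34 (SE 0.26) that did pass the threshold, with groups that did not overlap. Hsd11b1 stood at 1846, 2132 and 2198 CPM in WT and 1441, 1626 and 1644 CPM in SCADD livers, a log2 fold change of -0.39 (SE 0.17) that did not, although its groups did not overlap. On Lamb3's own strand lay 96.5% to 98.9% of the reads over its exons.

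Plxna2 (ENSMUSG00000026640, positions 194618218 to 194816869, plus strand) follows after a gap of 1247.9 kb from the coding gene before it, Camk1g. It was counted 274, 186 and 203 times in WT livers, or 9.91, 8.13 and 7.62 CPM. SCADD libraries held 167, 186 and 108 counts, or 6.81, 8.78 and 6.70 CPM. SCADD replicate 2 lay within the WT range, so the groups overlapped. Means were 8.56 ± 1.20 and 7.43 ± 1.17 CPM (SD, n = 3 per group), which is a log2 fold change of -0.20 (SE 0.18). A long transcript, it ranked low per length, at 0.783 ± 0.167 TPM in WT and 0.673 ± 0.210 TPM in SCADD livers (SD, n = 3 per group).

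Of 29 other plexin, semaphorin and downstream genes tested, none passed edgeR's test, 6 had an unadjusted p under 0.05, and the median log2 fold change was -0.08. DESeq2 called 2 of them, Mical2 and Rnd1, and limma-voom none. Mical2, an oxidase of actin that acts below plexins, had the smallest p in edgeR. It stood at 7.13 ± 1.31 CPM in WT and 11.8 ± 2.53 CPM in SCADD livers (SD, n = 3 per group), which is a log2 fold change of 0.73 (SE 0.20, edgeR's adjusted p = 0.0526), with each SCADD library above each WT library.

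Cd34 (ENSMUSG00000016494, positions 194938819 to 194961279, plus strand) was counted 159, 70 and 69 times in WT livers, or 5.75, 3.06 and 2.59 CPM. SCADD libraries held 41, 19 and 18 counts, or 1.67, 0.896 and 1.12 CPM. Every SCADD library lay below every WT library, and replicate 1 was again the highest of each group. Means were 3.80 ± 1.71 and 1.23 ± 0.400 CPM (SD, n = 3 per group), which is a log2 fold change of -1.61 (SE 0.36), or 0.327 times the WT level. In bulk tissue, fewer cells of a type and less RNA per cell cannot be told apart.

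In TPM, Cd34 stood at 2.57, 1.26 and 1.08 in WT livers and at 0.74, 0.41 and 0.35 in SCADD livers. It moved from the fourth to the seventh place among the 8 genes. RSEM's mean transcript length was 2478 to 2483 bases in WT and 2554 to 2579 bases in SCADD libraries, without overlap. The annotated coding transcripts of Cd34 are 2454 and 2554 bases long. With 18 to 41 counts per SCADD library, this difference in isoform weighting rests on few reads and was not tested.

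Vascular endothelium was read from a list of 25 other tested genes, among them relatives of Cd34. None passed edgeR's test, 6 had an unadjusted p under 0.05, DESeq2 and limma-voom called none, and the median log2 fold change was -0.21. Of the 25 genes, 4 had a positive value. Their summed level was 183 to 191 CPM in WT and 157 to 177 CPM in SCADD libraries, without overlap. The smallest p belonged to Tek, the receptor for angiopoietins, at 10.3 ± 1.62 CPM in WT and 6.85 ± 1.14 CPM in SCADD livers (SD, n = 3 per group). Its log2 fold change was -0.60 (SE 0.18, edgeR's adjusted p = 0.0735), with each SCADD library below each WT library.

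Markers of other liver cells were summed in the same way. Of all tested genes, 7.02% were called in either direction. Sinusoidal endothelium markers summed to 299.8 to 338 CPM in WT and 198 to 295 CPM in SCADD libraries, and 1 of 10, Lyve1, fell. Lyve1 lost its call without WT replicate 2 or 3 (edgeR's adjusted p 0.0703 and 0.0625). Cholangiocyte markers, of epithelium that makes basement membrane, summed to 49.4 to 55.5 CPM in WT and 33.8 to 44.5 CPM in SCADD libraries, with none of 5 tested genes called by edgeR, 3 at an unadjusted p under 0.05 and 1 called by DESeq2. Most of that sum was Spp1, at 44.7, 48.1 and 42.05 CPM in WT and 31.5, 27.8 and 39.45 CPM in SCADD livers. B cell markers summed to 8.48 to 12.9 CPM in WT and 15.01 to 18.7 CPM in SCADD libraries, and 1 of 3 tested genes, Ighm, rose. Ighm by itself stood at 6.11, 6.25 and 7.36 CPM in WT and 14.9, 15.7 and 12.7 CPM in SCADD livers. The other tested markers, Ms4a1 and Cd79b, had log2 fold changes of -0.57 and -0.49 and were not called. The list median was -0.49, so the higher sum does not describe the B cell markers as a set. The sums of Kupffer cell, stellate cell, T and NK cell, neutrophil, blood cell and hepatocyte markers overlapped between groups. Alas2 of the blood cell list rose (log2 fold change 1.13, edgeR's adjusted p = 0.00357), with all SCADD libraries above all WT libraries. Cps1 of the hepatocyte list fell (log2 fold change -0.97, edgeR's adjusted p = 0.00728), with all SCADD libraries below all WT libraries, a call lost without WT replicate 2 (edgeR's adjusted p = 0.0504). Mpo of the neutrophil list was the one marker at 0 in every library. The part of these differences in the levels of Cd34, Lamb3 and Cr1l was not tested.

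A330023F24Rik (ENSMUSG00000096929, positions 194976375 to 195037904, plus strand), the transcript with the miR-29 hairpins printed above, begins 15.1 kb beyond Cd34. It was counted 99, 129 and 150 times in WT livers, or 3.58, 5.64 and 5.63 CPM. SCADD libraries held 96, 80 and 89 counts, or 3.92, 3.77 and 5.52 CPM. The groups overlapped, with means of 4.95 ± 1.19 and 4.40 ± 0.970 CPM (SD, n = 3 per group) and a log2 fold change of -0.18 (SE 0.24). In TPM the groups did not overlap, at 0.92, 1.37 and 1.26 in WT livers and 0.8, 0.87 and 0.84 in SCADD livers. RSEM's expected counts were 0.906, 0.961 and 0.921 times the own-strand counts in WT and 0.774, 0.776 and 0.767 times in SCADD livers, and the part of this difference in the TPM values was not tested.

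Its value depended on how strand was counted. A330023F24Rik and Cd46 share 1079 exonic bases on opposite strands. Counted without strand, A330023F24Rik held 21, 26 and 24 reads in WT livers and 18, 14 and 4 in SCADD livers. From those counts the log2 fold change was -0.70 in place of -0.18.

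**Figure D2:**
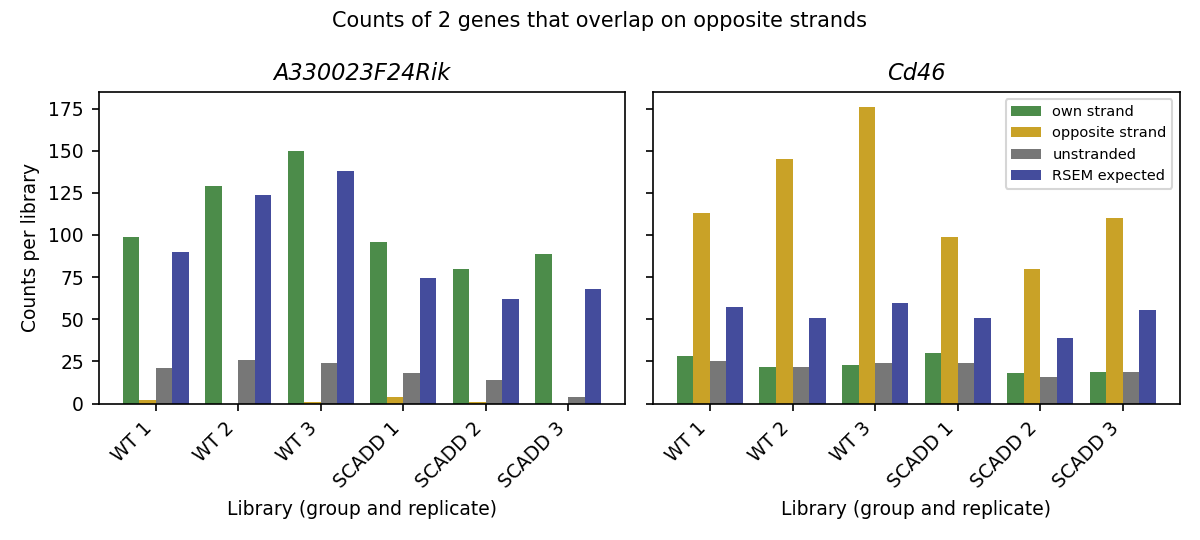
Counts per library of A330023F24Rik and Cd46, which overlap on opposite strands, by the strand used and from RSEM. Bars start at 0 and each is 1 library. For A330023F24Rik the own-strand bars (80 to 150) far exceed the unstranded ones (4 to 26), and for Cd46 the opposite-strand bars (80 to 176) exceed the own-strand ones (18 to 30).

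Known targets of miR-29 were read from a list of 32 tested genes, 29 of which (90.6%) hold the match TGGTGCT printed above in the 3′ untranslated region. Of the 32, 4 rose and 1 fell, which is 15.6% called, against 7.02% of all tested genes. The median log2 fold change of the 32 was 0.06. Their summed level was 602 to 668 CPM in WT and 669.7 to 749.8 CPM in SCADD libraries, without overlap. Lamc1 is also in the list of laminins, Col1a1 among the stellate cell markers. Col5a3, a fibrillar collagen chain, rose from 1.38 ± 0.630 to 12.0 ± 3.38 CPM (SD, n = 3 per group), which is a log2 fold change of 3.12 (SE 0.31, edgeR's adjusted p = 0.000326). Col15a1, a collagen of the basement membrane zone, rose from 0.368 ± 0.129 to 1.75 ± 0.151 CPM (SD, n = 3 per group), which is a log2 fold change of 2.21 (SE 0.33, edgeR's adjusted p = 0.00322). For both, all 3 SCADD libraries lay above all WT libraries.

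Col4a2, a chain of basement membrane collagen, rose by a log2 fold change of 0.82 (SE 0.17, edgeR's adjusted p = 0.0160), and Pik3r1, a regulatory subunit of phosphoinositide kinase, by 0.54 (SE 0.13, edgeR's adjusted p = 0.0365). Col5a2, named after its value was seen, fell, with a log2 fold change of -0.91 (SE 0.24, edgeR's adjusted p = 0.0486). In these 3 genes as well, the groups did not overlap, which held for 28% of all tested genes. The calls of all 3 were lost without single libraries, for Col4a2 without WT replicate 2 or 3 or SCADD replicate 1 (edgeR's adjusted p 0.0540 to 0.0856). For Pik3r1 that was any library but SCADD replicate 3 (edgeR's adjusted p 0.0880 to 0.130), and for Col5a2 any but WT replicate 2 and SCADD replicate 3 (edgeR's adjusted p 0.0700 to 0.152), and limma-voom (0.0636). Over the genome, the match was held by 86 of 516 genes that rose (16.7%) and 44 of 349 that fell (12.6%), against 16.4% of all.

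**Figure D3:**
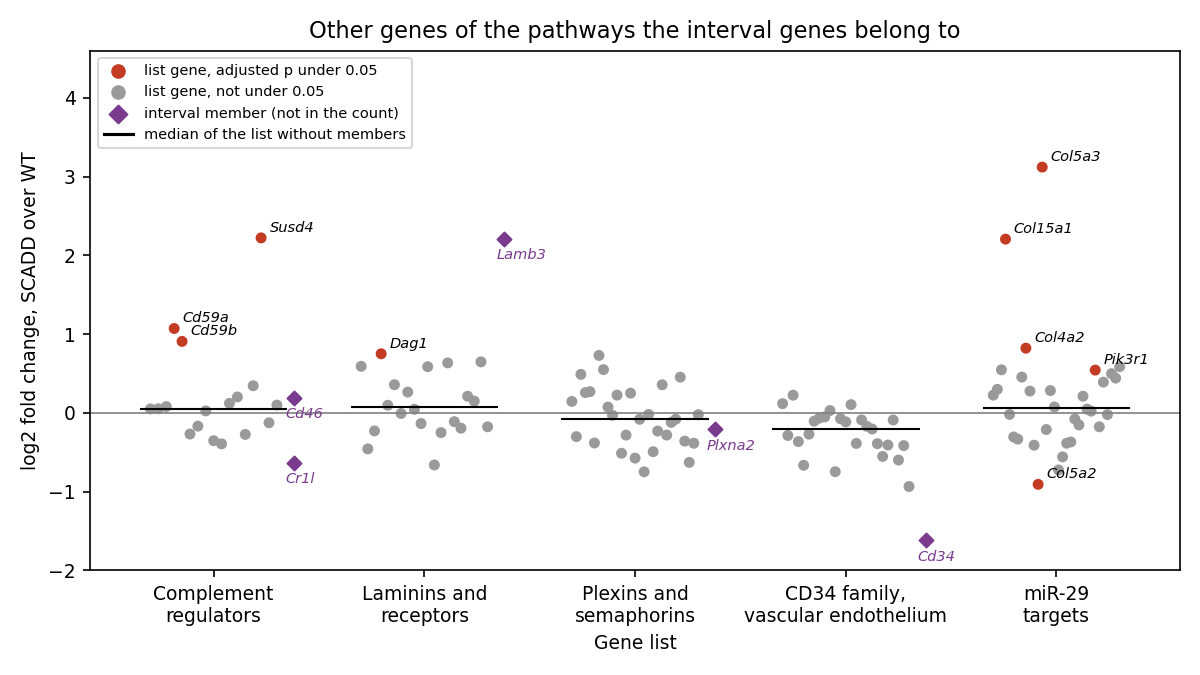
Log2 fold change, SCADD over WT, of the tested genes in each list, in alphabetical order within a list, with medians as black lines. Red points passed the threshold, grey points did not, and purple diamonds are members of the interval, which are not counted in the lists. List medians lie between -0.21 and 0.07, and Col5a3 is the highest point at 3.12.

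A130010J15Rik (ENSMUSG00000079144, positions 193168046 to 193177832, plus strand), a coding gene of unknown function, was counted 297, 284 and 325 times in WT livers, or 10.7, 12.4 and 12.2 CPM. SCADD libraries held 276, 308 and 155 counts, or 11.3, 14.5 and 9.62 CPM. The SCADD libraries spread on both sides of the WT range. Means were 11.8 ± 0.909 and 11.8 ± 2.50 CPM (SD, n = 3 per group), which is a log2 fold change of 0.01 (SE 0.17). It shares 420 exonic bases with Traf3ip3 on the other strand.

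Per length, the WT order ran Cr1l, A130010J15Rik, Lamb3, Cd34, A330023F24Rik, Gm37691, Plxna2 and Cd46, with means from 48.7 to 0.387 TPM. Libraries of neighbours in that order overlapped except between Cr1l and A130010J15Rik, A130010J15Rik and Lamb3, and Plxna2 and Cd46. The SCADD order ran Cr1l, Lamb3, A130010J15Rik, Gm37691, A330023F24Rik, Plxna2, Cd34 and Cd46, from 27.9 to 0.403 TPM. There, neighbours did not overlap between Cr1l and Lamb3, A130010J15Rik and Gm37691, and Gm37691 and A330023F24Rik. Gm37691 thus lay below Cd34 in the WT mean and above it in every SCADD library.

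Of the 42 annotated features, 15 had at least 10 counts over the 6 libraries and 12 were tested. Of the 4 tested genes outside the 8, G0s2 alone passed the threshold. Hsd11b1 is given above, and Diexf, at the near edge, stood at 4.41 ± 0.112 and 4.30 ± 0.652 CPM (SD, n = 3 per group), which is a log2 fold change of -0.04. Traf3ip3 had 21, 16 and 7 counts in WT and 6, 4 and 7 in SCADD livers, and Gm37027 had 5, 5 and 12 and 7, 3 and 5, too few to be tested.

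Within 1 Mb outside the stretch, 3 genes were tested, with log2 fold changes of -0.32 to 0.79, and 0 were called by edgeR, DESeq2 or limma-voom (at an unadjusted p under 0.05, 0 in edgeR and DESeq2 and 1 in limma-voom). The nearest was Hhat, which ends at 192771223, with a log2 fold change of -0.32 (SE 0.47, edgeR's adjusted p = 0.740) and overlapping groups. No tested gene lies between the stretch and the chromosome end. The nearest gene outside that passed the threshold was Rd3, ending at 191988283, which rose from 0.750 ± 0.267 to 2.51 ± 0.380 CPM (SD, n = 3 per group). Its log2 fold change was 1.72 (SE 0.30, edgeR's adjusted p = 0.00757), with every SCADD library above every WT library. Over chromosome 1 as a whole, 57 of 802 tested genes were called.

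**Figure D4:**
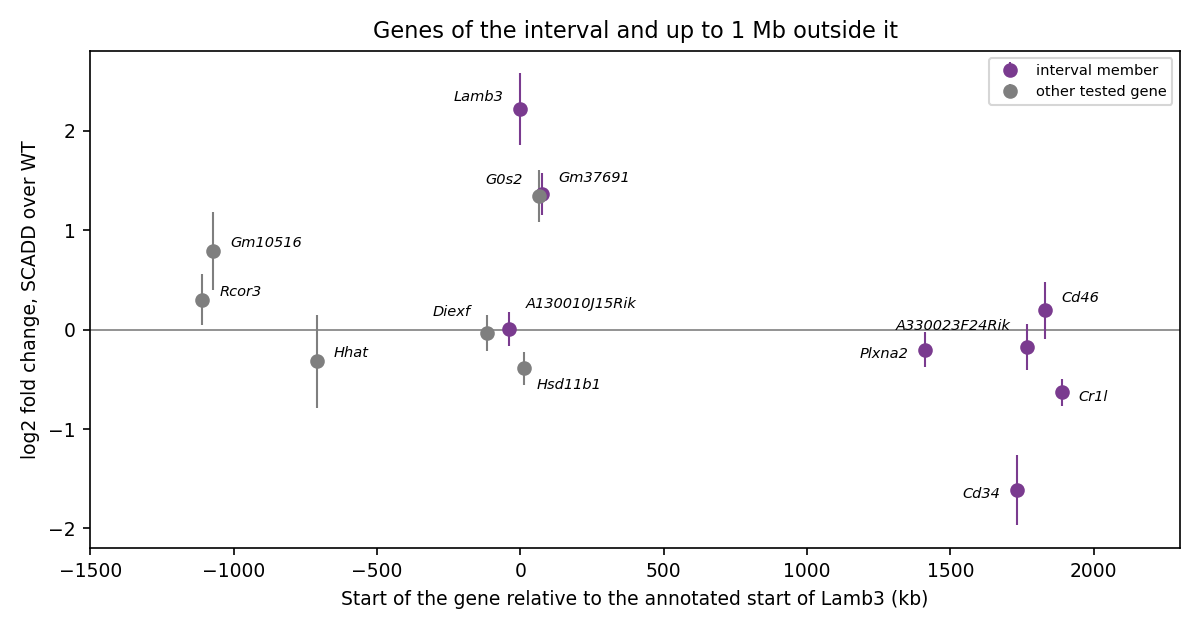
Log2 fold change, SCADD over WT, of the tested genes of the interval (purple, members) and of other tested genes reported here within and up to 1 Mb before it (grey), against distance in kb from the annotated start of Lamb3. Bars are 1 SE. Lamb3 at 2.21 and Gm37691 at 1.36 stand beside G0s2 at 1.34, and Cd34 at -1.61 and Cr1l at -0.63 lie at the far end.

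The genes whose pattern over the 6 libraries was most like that of each of the 4 members with separate groups were found among 11684 tested genes outside the interval. Likeness was the root mean square difference of log2 CPM profiles, each centred on its own mean, and smaller means more alike. For Lamb3 they were Ehhadh (0.232), Slc16a13 (0.274) and Aldh3a2 (0.289). Gm37691 was nearest to Rhou (0.0536), Ppp2r2d (0.0806) and Col15a1 (0.116). The added 0.5 shrinks differences between libraries in genes at low CPM. Among these is Col15a1, with a fitted log2 fold change of 2.21 against 1.36 for Gm37691. Cd34 had Gm45044 (0.138), B930025P03Rik (0.165) and Chic1 (0.181), and Cr1l had Crnkl1 (0.0487) and Frk (0.0593). For the 4 members with overlapping groups the nearest were Coil, Med1 and Naa10 for Plxna2, and Idh3b, Ptov1 and Ggact for A130010J15Rik. For A330023F24Rik they were Akr1c20, 1110065P20Rik and Gemin6, and for Cd46 Amot, Esyt2 and Ap5m1. The values describe these 6 libraries only, and all profiles share their libraries and depth.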

How the data were processed

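Poly(A) RNA was sequenced from 3 WT and 3 SCADD livers, and the groups came from the labels. The submitters' processing notes name STAR 2.7.6a, RSEM 1.3.3 and GRCm38. Which annotation release was used is not given in the sources used here. The authors deposited, for each library, STAR read counts per gene (unstranded and for each strand, not normalized) and TPM and expected counts for each gene from RSEM. The authors' TPM values were scaled by RSEM for transcript length and library. The stranded column with over 90% of stranded reads was used, which held 96.8% to 97.3% of them. STAR's summary rows stayed out of totals. Of 55487 gene IDs, 55227 matched GENCODE M21, which gave symbols, coordinates and exons.

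The 8 genes and all gene lists were chosen with earlier results of these data known. Genes were kept by filterByExpr (minimum count 10) and TMM factors computed. The test was edgeR 4.0.16 (robust glmQLFit, glmQLFTest) in R 4.3.3 with a group term alone. Benjamini-Hochberg adjustment covered 13498 genes, with a threshold of 0.05. SE is the ratio of the log2 fold change to the root of F, an approximation. On data simulated for SCADD against WT (13587 genes tested), 10% of changes of 1.5-fold were recovered, 79.2% at 2-fold and 97.9% at 4-fold, and 6 of 143 calls were false. The simulation gave every gene the same dispersion and changed fewer genes than the 947 called in the data. Its rates may therefore not hold for these libraries. Replicates differed by more than sampling noise (chi-square per degree of freedom 32.8 to 121 within groups). Correlations of log CPM were 0.974 to 0.988 inside a group and 0.956 to 0.965 across groups.

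Named were Acads, the 8 genes, other genes of the interval with at least 10 counts, and the nearest tested and nearest called gene outside it. Of each list, up to 4 called genes with the smallest p were added, or the 1 with the smallest p where none was called. For each member, 3 genes nearest in log2(CPM + 0.5) profile, among those averaging at least 1 CPM, were named too. Some genes taken by these rules are not reported here. The alternatives tried were upper-quartile and RLE scaling, no filter or 1 CPM in 3 libraries, DESeq2 1.42.0, limma-voom (limma 3.58.1), rounded RSEM expected counts, unstranded counts, a replicate block and leaving out each library. Sequences came from RefSeq tables for GRCm38.p6, which matched 7 of the 8 genes for promoters. Untranslated regions and the Cd46 stretches were read from the GENCODE M21 transcripts.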

Additional observations from a re-analysis of the deposited data

How the results depend on the processing

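The log2 fold changes of Lamb3, Gm37691, Plxna2, Cd34, A330023F24Rik, Cd46 and Cr1l kept their sign under all 15 alternatives, and that of A130010J15Rik under 9 of 15. Over these, Lamb3 ranged from 1.84 to 2.63, Gm37691 from 1.21 to 1.52, Cd34 from -1.94 to -1.19 and Cr1l from -0.74 to -0.56. A330023F24Rik ranged from -0.70 (unstranded counts) to -0.07, Plxna2 from -0.35 to -0.09, Cd46 from 0.06 to 0.34 and A130010J15Rik from -0.18 to 0.13. No scaling moved the median of all genes by more than 0.05. Without a filter on low counts, where 24676 genes were tested, 950 genes were called higher and 752 lower, as were 3 laminin, 3 plexin and semaphorin and 1 vascular endothelium genes. The plexin and semaphorin list had 1 call under upper-quartile scaling and 2 with DESeq2. Leaving out 1 library gave 240 to 909 genes higher and 155 to 681 lower, and 2 to 4 of the 8 interval genes. Such fits gave 2 to 3 complement, 0 to 2 laminin, 0 to 3 plexin and semaphorin, 0 to 1 vascular endothelium and 2 to 7 miR-29 target genes. Replicate numbers are shared between groups. Same-numbered libraries had deviations correlated at 0.0606, 0.0372 and 0.107, and differently numbered ones at -0.127 to 0.0612. These values do not settle whether the numbers pair the animals, and the main fit did not pair them. With a replicate block, 668 genes were called higher and 480 lower, with 2 in the plexin and semaphorin list and the same 4 interval genes. The block gave an SE of 0.15 for Lamb3 and 0.25 for Cd34, against 0.36 for each in the main fit. For Gm37691 and Cr1l it gave 0.22 and 0.14, against 0.21 and 0.13. The cause of these changes was not tested. Depth limits Cd46 (18 to 30 counts per library) and Cd34 (18 to 41 counts per SCADD library) most.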
